A study of Mus musculus with 8 samples.

Results

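The miR-181 family was followed in mouse kidney through its 4 guide strands, mmu-miR-181a-5p, mmu-miR-181b-5p, mmu-miR-181c-5p and mmu-miR-181d-5p (given without the species prefix from here on), which are 4 of the 1881 miRNAs on the array. They were taken by name from the non-control spots of the scanner files, where they have 8 of 4415 probes and 120 of 56430 spots per array. All 4 were above background on all 8 arrays.

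The LPS group was 4 kidneys of mice injected into the peritoneal cavity with 10 µg of lipopolysaccharide (LPS, a component of the outer membrane of Gram-negative bacteria) per g of body weight to model the kidney injury of sepsis, and the sham group was 4 kidneys of mice given saline the same way. Kidneys were taken after 24 h, and total RNA of whole tissue was labelled with Cy3 and hybridised to 1 Agilent mouse miRNA array per sample. The labels used here give no strain, sex or age. They number the samples (LPS 6, 10, 11 and 12, and sham 5, 6, 7 and 8) but leave unstated whether all came from separate animals, so the p-values cover the sample-to-sample spread alone, and that spread may be technical.

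A miRNA pairs through its seed, the stretch of bases near its 5′ end, with messenger RNAs and lowers their translation or stability. In mice the miR-181 family is known for setting the sensitivity of T cell receptor signalling in thymocytes, where miR-181a is abundant, and for damping NF-κB signalling in vascular endothelium, where miR-181b represses importin-α3, a carrier of NF-κB into the nucleus. MiR-181c has been described in rat heart muscle cells as acting in mitochondria. LPS sensed by Toll-like receptor 4 is a classical activator of NF-κB.

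The mature sequences show how alike the members are and where they differ. Each is given 5′ to 3′ as RNA, from RefSeq (GRCm38.p6), with the seed (bases 2 to 8) in capitals.
miR-181a-5p: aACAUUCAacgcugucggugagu
miR-181b-5p: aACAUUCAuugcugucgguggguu
miR-181c-5p: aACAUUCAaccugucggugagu
miR-181d-5p: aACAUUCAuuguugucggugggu
All 4 share the seed ACAUUCA, and none of the other names among the 1679 mature mouse miRNA names of that table has it. The members fall into sequence pairs that differ downstream of the seed. MiR-181a-5p and miR-181c-5p share 22 of 23 aligned bases and differ by 1 missing base, while miR-181b-5p and miR-181d-5p share 22 of 24 and differ by C12U, counted from the 5′ end of miR-181b-5p, and by the last base. Across these pairs, miR-181a-5p differs from miR-181b-5p at A9U, C10U and A21G, counted from the 5′ end of miR-181a-5p, with the last base of miR-181b-5p beyond its end.

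Genomic position groups the members in another way. MiR-181a-5p and miR-181b-5p are encoded next to each other at 2 places, on chromosome 1 (chr1:137966468-137966490 and chr1:137966650-137966673, GRCm38.p6, plus strand) and on chromosome 2 (chr2:38852741-38852763 and chr2:38853845-38853868, plus strand). The chromosome 2 pair lies inside the span of Nr6a1, a gene for an orphan nuclear receptor, and of the long noncoding RNA gene Nr6a1os. MiR-181c-5p and miR-181d-5p are encoded together on chromosome 8 (chr8:84178924-84178945 and chr8:84178759-84178781, minus strand). The array cannot tell the chromosome 1 copies of miR-181a-5p and miR-181b-5p from the chromosome 2 copies, since their mature strands are identical.

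The array reads each member with 2 probes of 15 spots each, complementary to its 3′ part. They are given 5′ to 3′ as DNA from the scanner files, because they show which members a probe could also bind, and the capital is base 3, at which the probes of miR-181a-5p and miR-181c-5p differ from those of miR-181b-5p and miR-181d-5p.
miR-181a-5p, shorter probe: acTcaccgacagc
miR-181a-5p, longer probe: acTcaccgacagcg
miR-181c-5p, shorter probe: acTcaccgacaggttgaa
miR-181c-5p, longer probe: acTcaccgacaggttgaat
miR-181b-5p, shorter probe: acCcaccgacagc
miR-181b-5p, longer probe: acCcaccgacagca
miR-181d-5p, shorter probe: acCcaccgacaacaat
miR-181d-5p, longer probe: acCcaccgacaacaatg
Each probe was fully complementary to its own member and to no other mature mouse miRNA in the RefSeq table. The longest unbroken run of complementary bases with another member was 12 of 13, for the shorter miR-181a-5p probe on miR-181c-5p. It was 11 of 13 for the shorter miR-181b-5p probe on miR-181d-5p. An unbroken run understates the likeness of miR-181a-5p and miR-181b-5p. Their shorter probes differ at base 3 alone, although the run of each on the other member was 10 of 13. No probe had a run of more than 8 with a mouse miRNA outside the family. Binding of a probe by another member cannot be told apart from its own signal here, and its part in the results was not tested.

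A level here is the log2 of a miRNA's signal after division by the 75th percentile of its array (over 551 probes that all 8 arrays detected), and a difference is LPS minus sham on that scale. Signals of different members come from different probes and are not compared with each other as levels.

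After LPS, 2 of the 4 guide strands were called lower and the other 2 did not pass the test. Of 25 alternative settings, the miR-181b-5p call held in all 25 and the miR-181d-5p call in 17. MiR-181b-5p was at 73.4% of the sham level (95% interval 64.7 to 83.3) and miR-181d-5p at 82.2% (73.0 to 92.6), whereas miR-181a-5p was at 98.5% (87.3 to 111) and miR-181c-5p at 98.1% (85.9 to 112). No member rose. Of all 338 tested miRNAs 25.4% were called lower and 40.2% were called in either direction with limma at an adjusted p under 0.05, and the median difference of all tested miRNAs was -0.08. The excess of falls depended on the scaling, with 86 called lower and 50 higher here, against 49 and 57 without scaling, 53 and 55 with the percentile over all probes, 66 and 65 with cyclic loess, and 149 and 34 with spike-in scaling. In whole tissue, fewer cells of a type and less RNA per cell cannot be told apart.

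MiR-181b-5p, the member linked to importin-α3, had log2 levels of -1.93, -1.77, -1.92 and -1.86 on LPS arrays 6, 10, 11 and 12, against -1.58, -1.24, -1.45 and -1.42 on sham arrays 5, 6, 7 and 8. The groups did not overlap, and the highest LPS array stayed below the lowest sham array. Groups that did not overlap with LPS lower were found for 24.9% of all tested miRNAs, and in either direction for 37%. The means were -1.87 ± 0.07 in LPS and -1.42 ± 0.14 in sham kidneys (SD, n = 4 per group), a difference of -0.45 ± 0.08 (SE, limma, adjusted p = 0.00334). Before scaling between arrays, its summed signal was 134 to 158 intensity units in LPS and 161 to 199 in sham kidneys, also without overlap.

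MiR-181d-5p, whose spots lay nearest to background, had log2 levels of -3.38, -3.15, -3.22 and -3.21 on LPS arrays 6, 10, 11 and 12, against -2.83, -2.91, -3.06 and -3.03 on sham arrays 5, 6, 7 and 8. The groups did not overlap, with LPS array 6 lowest and sham array 5 highest. The means were -3.24 ± 0.10 in LPS and -2.96 ± 0.11 in sham kidneys (SD, n = 4 per group), a difference of -0.28 ± 0.08 (SE, limma, adjusted p = 0.0200). Before scaling its signal was 48.8 to 60.7 intensity units in LPS and 61.2 to 67.8 in sham kidneys. Its spots were flagged well above background less evenly than those of the others, 90 of 119 in LPS and 105 of 119 in sham kidneys, where every unflagged spot of the other members was above background in both groups. The miR-181d-5p call was lost in 8 of 25 alternative settings (adjusted p 0.0506 to 0.148), among them 4 other scalings and leaving out sham replicate 6 (adjusted p = 0.0562), although its difference stayed negative in all 25.

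**Figure D1:**
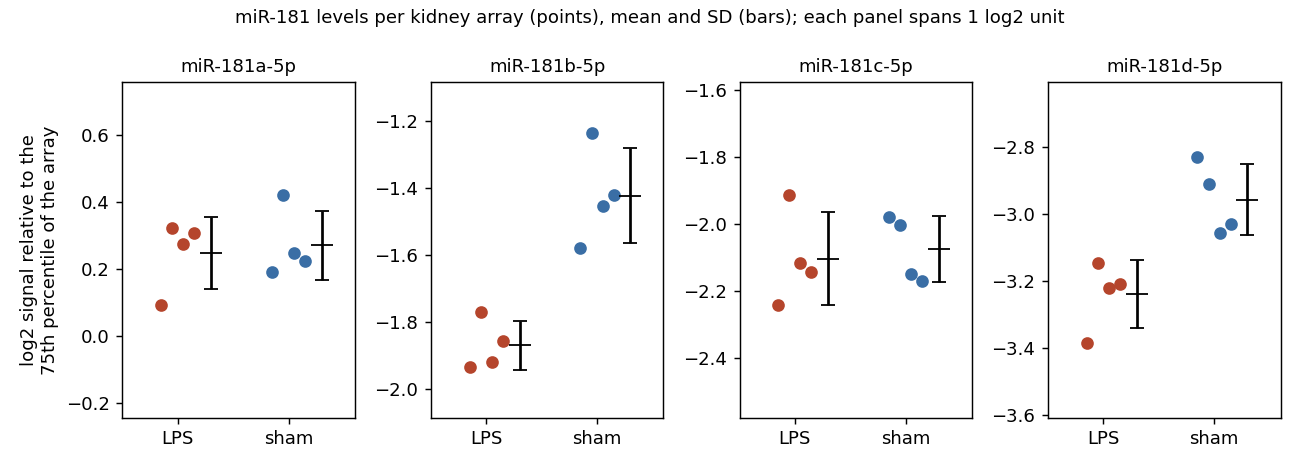
Scaled log2 level of each miR-181 member, with 1 point per array in replicate order, LPS left and sham right, and the mean and SD beside the points. The LPS points of miR-181b-5p and miR-181d-5p all lie below their sham points, while those of miR-181a-5p and miR-181c-5p overlap. Panels have different origins and the same span of 1 log2 unit.

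MiR-181a-5p, the thymocyte-linked member, had log2 levels of 0.09, 0.32, 0.27 and 0.31 on LPS arrays 6, 10, 11 and 12, against 0.19, 0.42, 0.25 and 0.22 on sham arrays 5, 6, 7 and 8. The groups overlapped, with LPS array 6 lowest and sham array 6 highest. The means were 0.25 ± 0.11 in LPS and 0.27 ± 0.10 in sham kidneys (SD, n = 4 per group), and the difference of -0.02 had a 95% interval of -0.20 to 0.15 (limma, adjusted p = 0.840).

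MiR-181c-5p had log2 levels of -2.24, -1.91, -2.11 and -2.14 on LPS arrays 6, 10, 11 and 12, against -1.98, -2.004, -2.15 and -2.17 on sham arrays 5, 6, 7 and 8. LPS arrays gave both the lowest value, on array 6, and the highest, on array 10. The means were -2.10 ± 0.14 in LPS and -2.07 ± 0.10 in sham kidneys (SD, n = 4 per group), and the difference of -0.03 had a 95% interval of -0.22 to 0.16 (limma, adjusted p = 0.818). These intervals leave room for changes of miR-181a-5p and miR-181c-5p of the size seen for some called miRNAs, so they do not show that either was unaltered.

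Both probes of a member gave like differences, so the sums do not rest on a single probe. The sequence of the shorter probe lies within the longer one, so the 2 are not independent readings. All 4 probes of miR-181b-5p and miR-181d-5p were called lower, and 0 of the 4 probes of miR-181a-5p and miR-181c-5p were called, in a fit over 633 probes of which 24.6% were called lower and 38.9% in either direction. The miR-181b-5p probes differed by -0.43 for the shorter (adjusted p = 0.00617) and -0.46 for the longer (adjusted p = 0.00253). The miR-181d-5p probes differed by -0.34 for the shorter (adjusted p = 0.0104), which was above background on 3 of 4 LPS arrays and at the floor of the scale on LPS array 6, and by -0.24 for the longer (adjusted p = 0.0317). The call of that longer probe was lost in 7 of 11 alternatives (adjusted p 0.0519 to 0.0824), including leaving out any of sham replicate 5, 6 or 7 or LPS replicate 6, 11 or 12. The probes of miR-181a-5p differed by -0.07 for the shorter and -0.001 for the longer, and those of miR-181c-5p by -0.07 for the shorter and 0.003 for the longer.

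**Figure D2:**
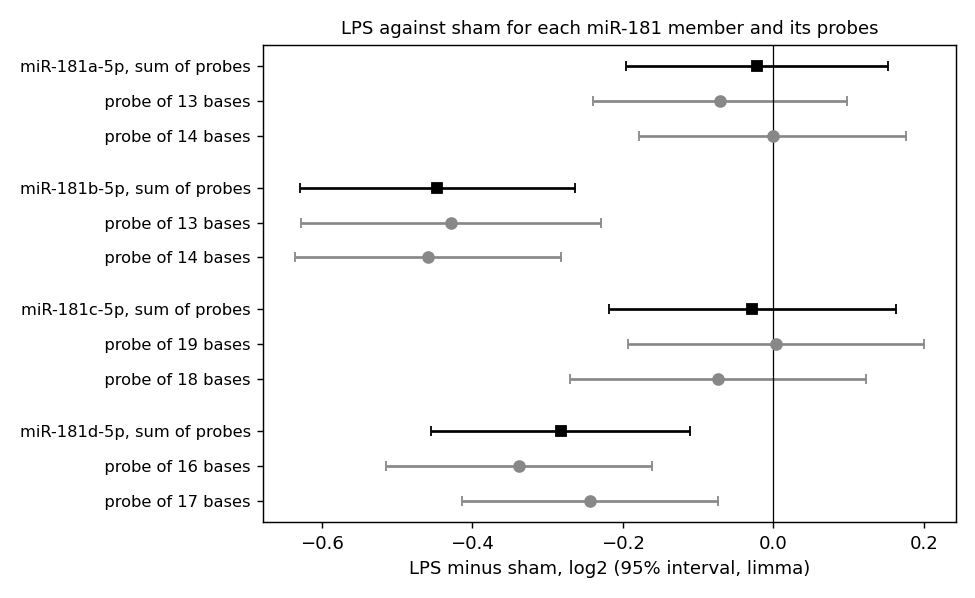
LPS minus sham on the log2 scale with its 95% interval, for the sum of the probes of each member (squares) and for each probe (circles), named by its length in bases. The intervals of miR-181b-5p, miR-181d-5p and their 4 probes lie below 0, and those of miR-181a-5p, miR-181c-5p and their 4 probes span 0.

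Whether the members responded unequally was tested directly, through the log2 ratio of 2 members within each array, in which the scaling between arrays cancels. Of the 6 pairs, 4 differed between LPS and sham kidneys at the smallest p that 4 against 4 arrays allow (2-sided exact permutation p = 0.0286, adjusted over the 6 pairs p = 0.0429). These were the 4 pairs that set a member with an adenine near its 3′ end (miR-181a-5p or miR-181c-5p) against one with a guanine there (miR-181b-5p or miR-181d-5p). That is the base that the probes read at their base 3. It is not the only base that divides these members. MiR-181a-5p and miR-181b-5p, for example, also differ just downstream of the seed, at A9U and C10U. The part of any of these bases in the ratios was not tested. The 4 pairs join the called members with those not called, so they are not separate findings. The share of ratios of other miRNAs that differ was not computed, so 4 of 6 is not read as particular to the family. Singly, 40.2% of all tested miRNAs were called and 37% did not overlap, in either direction.

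MiR-181a-5p over miR-181b-5p, strands of the same 2 genomic clusters, was 2.02 to 2.19 on LPS arrays and 1.64 to 1.77 on sham arrays, a difference of 0.42. The 4 LPS arrays all lay above the 4 sham arrays. MiR-181c-5p over miR-181d-5p, strands of the chromosome 8 cluster, was 1.06 to 1.23 on LPS arrays and 0.85 to 0.91 on sham arrays, a difference of 0.25. Here too no LPS array reached down to a sham array, so in both clusters the ratio of the neighbouring strands differed between the groups.

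MiR-181a-5p over miR-181d-5p was 3.47 to 3.52 on LPS arrays and 3.02 to 3.33 on sham arrays, a difference of 0.26. MiR-181b-5p over miR-181c-5p was 0.14 to 0.31 on LPS arrays and 0.40 to 0.77 on sham arrays, a difference of -0.42. Both ratios separated the groups. Sham array 5 was the sham array furthest from the LPS arrays for miR-181a-5p over miR-181d-5p. For miR-181b-5p over miR-181c-5p it was the nearest.

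The remaining pairs did not pass the test. MiR-181a-5p over miR-181c-5p differed by 0.01 (95% interval -0.18 to 0.19 from the pooled SD of the arrays, 2-sided exact permutation p = 0.914, adjusted p = 0.914). MiR-181b-5p over miR-181d-5p differed by -0.16 (-0.41 to 0.08, 2-sided exact permutation p = 0.143, adjusted p = 0.171), and without sham replicate 5 by -0.26 (exact permutation, adjusted p = 0.0343). With normexp background correction and its offset, which by construction shrinks differences of low signals, the 4 ratio differences were 0.24, 0.10, -0.23 and 0.09 for miR-181a-5p over miR-181b-5p, miR-181a-5p over miR-181d-5p, miR-181b-5p over miR-181c-5p and miR-181c-5p over miR-181d-5p, and none passed (adjusted p 0.0571 to 0.137). The 4 calls were also lost when any LPS array was left out (adjusted p 0.0571 to 0.0857) and kept when any sham array was. Within the slide columns, each holding an LPS and a sham array, the 4 ratios differed the same way in 4 of 4 columns, but an exact sign-change permutation test over 4 columns cannot go below p = 0.125, the value each of them gave.

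**Figure D3:**
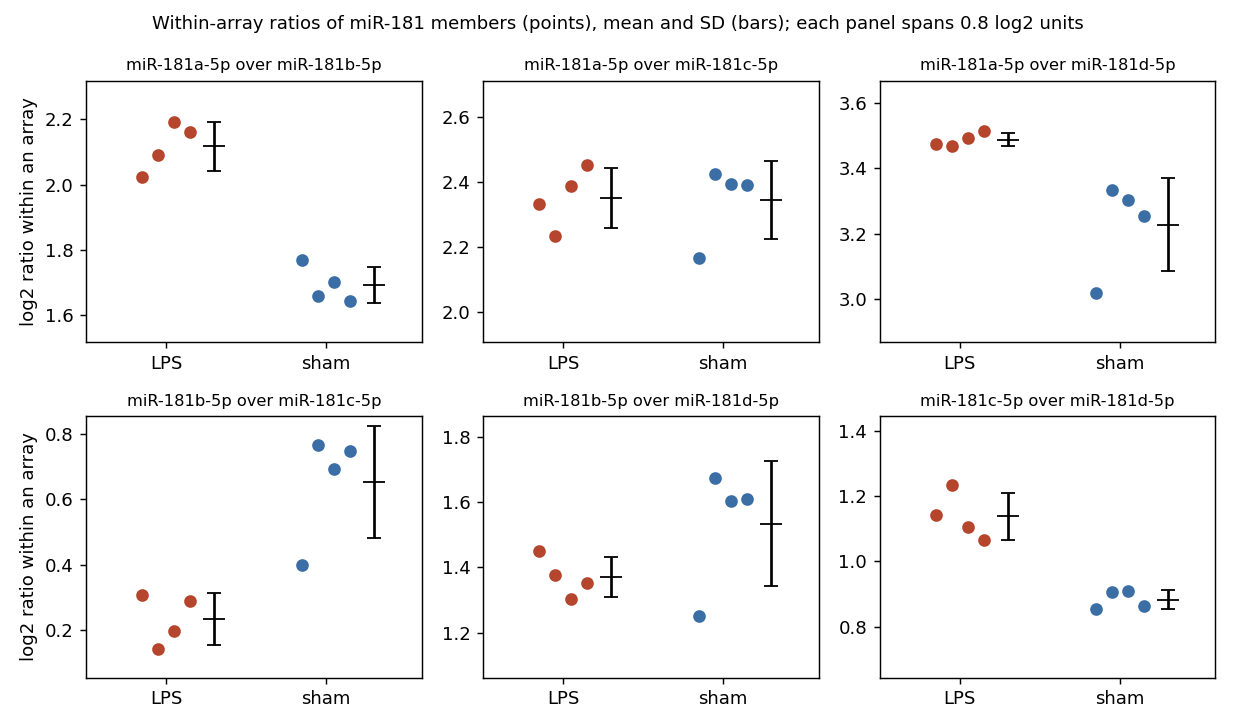
Log2 ratio of 2 members within an array, with 1 point per array in replicate order, LPS left and sham right, and the mean and SD beside the points. The LPS and sham points separate in the 4 pairs that join miR-181a-5p or miR-181c-5p with miR-181b-5p or miR-181d-5p, and overlap in the other 2. Panels have different origins and the same span.

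All arrays lay on 1 slide, with the sham arrays in row 1 and the LPS arrays in row 2, so the row of the slide and the treatment cannot be told apart. In each of 4 columns an LPS array lay beside a sham array. Within columns 1 to 4, miR-181b-5p differed by -0.35, -0.53, -0.46 and -0.43, lower in LPS in every column. MiR-181d-5p differed by -0.55, -0.24, -0.16 and -0.18, also lower in every column and furthest in the column of LPS array 6 and sham array 5. MiR-181a-5p differed by -0.10, -0.10, 0.03 and 0.09, and miR-181c-5p by -0.26, 0.09, 0.03 and 0.03, with mixed signs. With column as a block, miR-181b-5p kept its call (limma, adjusted p = 0.00614) and miR-181d-5p lost it (adjusted p = 0.0631).

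The fall of miR-181b-5p was called in all 25 alternatives, with differences from -0.59 to -0.26 (adjusted p 6.21e-04 to 0.0436). With normexp its difference was -0.26 and that of miR-181d-5p -0.12. Scaling to labelling spike-ins, which lowered the median difference of all tested miRNAs to -0.23, gave -0.59 for miR-181b-5p, -0.43 for miR-181d-5p, -0.16 for miR-181a-5p and -0.17 for miR-181c-5p, the last 2 not called (adjusted p = 0.0777 and 0.111). The sign of the miR-181a-5p and miR-181c-5p differences varied, negative in 19 and 18 of the 25 alternatives, and neither was called in any.

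**Figure D4:**
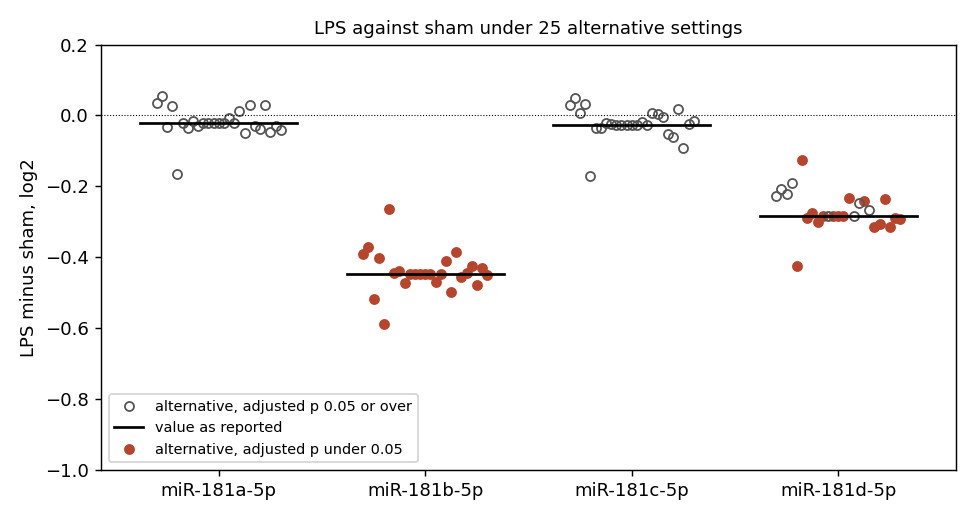
LPS minus sham on the log2 scale for each member under 25 alternative settings (points) and as reported (lines). Filled points passed an adjusted p under 0.05 and open points did not: all 25 are filled for miR-181b-5p, 17 for miR-181d-5p and 0 for miR-181a-5p and miR-181c-5p.

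The opposite strands of the hairpins, usually degraded once the guide strand is loaded, were not detected. None of the 6 (miR-181a-1-3p, miR-181a-2-3p, miR-181b-1-3p, miR-181b-2-3p, miR-181c-3p and miR-181d-3p) was above background on any of the 8 arrays, so no fold is given for them. These strands are read by their own probes and, unlike the guide strands of miR-181a and miR-181b, would tell the chromosome 1 hairpins from the chromosome 2 hairpins.

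MiR-181a-1-3p, from chromosome 1, came nearest to detection. Its signal was 17.5 to 24.6 intensity units in LPS and 27.7 to 31.8 in sham kidneys, with 4 of 118 spots well above background in LPS and 13 of 118 in sham kidneys. In the authors' deposited ratio table it was 0.0225, 0.911, 0.798 and 0.0242 for LPS replicates 6, 10, 11 and 12. The sham replicates 5, 6, 7 and 8 were at 1.10, 2.18, 1.18 and 1.77. In that table the other 5 strands shared a value on each array, 0.958 on LPS replicate 6 and 1.03 on LPS replicate 12. Values of undetected strands there may therefore be substitutes, and 0.0225 and 0.0242 are not read as a loss. The other 5 strands had signals between -5.66 and 2.03 intensity units on every array, around 0 in both groups.

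The members also differed in which other miRNAs ran most alike with them over the 8 arrays. By Pearson's r of log2 levels with the 302 other miRNAs detected on all arrays, the nearest to miR-181b-5p were miR-196b-5p (0.98), miR-193a-3p (0.96) and miR-202-3p (0.95), and the nearest to miR-181d-5p were miR-484 (0.96), miR-30c-5p (0.92) and miR-326-3p (0.91). The 6 had LPS minus sham differences from -0.33 to -0.17, which follows in large part from choosing them for likeness to members that fell. With the group means removed, their r was 0.85, 0.91 and 0.61 with miR-181b-5p and 0.88, 0.68 and 0.68 with miR-181d-5p, in the same order. The nearest to miR-181a-5p were let-7c-5p (0.93), let-7e-5p (0.93) and let-7b-5p (0.91), and the nearest to miR-181c-5p were miR-28a-5p (0.91), the endothelial miR-126a-3p (0.90) and miR-331-3p (0.86). Their LPS minus sham differences lay between -0.03 and 0.01. These values describe 8 arrays that share 1 slide and a scaling factor each.

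Once the group means were removed, pairs of members ran most alike over the 8 arrays where they share a cluster. There r was 0.82 between miR-181a-5p and miR-181b-5p and 0.89 between miR-181c-5p and miR-181d-5p. It was 0.14 between miR-181b-5p and miR-181d-5p and 0.56 between miR-181a-5p and miR-181c-5p. Some miRNAs outside the family ran closer still: let-7e-5p with miR-181a-5p (0.94), miR-193a-3p with miR-181b-5p (0.91) and miR-28a-5p with miR-181c-5p (0.90). For miR-181d-5p, miR-484 was at 0.88. Sham replicate 5, with the lowest sham levels of miR-181a-5p and miR-181b-5p and the highest of the other members, enters these values. With 4 arrays per group these are descriptions and were not tested.

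Among other miRNAs linked to NF-κB signalling, some rose and none was called lower. Of 10 listed, 8 were above background on all 8 arrays, and of these 3 rose and 0 fell, with a median difference of 0.25, where 12.4% of all miRNAs above background on all 8 arrays and 14.8% of all tested were called higher. MiR-21a-5p, a miRNA that rises in injured kidney, was higher by 2.22 ± 0.08 (SE, limma, adjusted p = 1.95e-07), miR-155-5p, induced in activated macrophages, by 1.68 ± 0.08 (adjusted p = 2.25e-06), and miR-223-3p, abundant in neutrophils, by 0.86 ± 0.09 (adjusted p = 3.03e-04). MiR-146b-5p and miR-132-3p were above background on 4 LPS and 2 sham arrays each. They were tested solely through the group in which they were high, so their calls are not counted here. MiR-15a-5p and miR-16-5p, which in human monocytes target the kinase IKKα, differed by -0.01 and 0.01. The list was drawn up with earlier results of these data known.

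**Figure D5:**
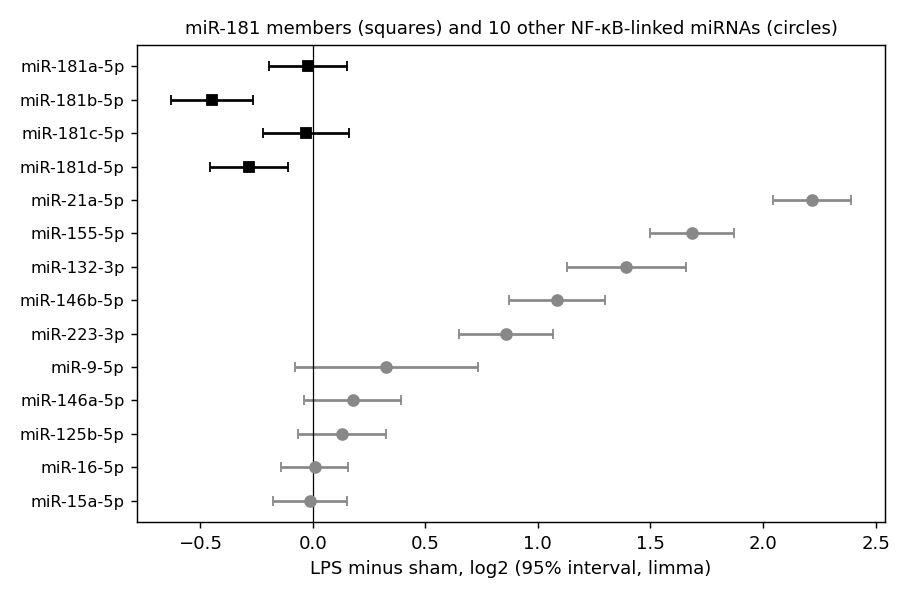
LPS minus sham on the log2 scale with its 95% interval, for the 4 miR-181 members (squares) and 10 other miRNAs linked to NF-κB signalling (circles). Intervals lie wholly above 0 for miR-21a-5p, miR-155-5p and miR-223-3p, and also for miR-146b-5p and miR-132-3p, which were above background on 2 of 4 sham arrays, while the intervals of miR-181b-5p and miR-181d-5p lie below 0.

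Markers of the cell types in kidney were read beside the shares of all tested miRNAs, 25.4% called lower and 14.8% called higher. A summed level adds the signals of a list, so its brightest miRNAs weigh most and changes of dim ones can be hidden. The amount of a cell type was not measured. Of 4 tubule miRNAs 3 fell, and their summed log2 level was 5.45 to 5.63 on LPS arrays and 5.63 to 5.74 on sham arrays. Of 6 leukocyte miRNAs 2 rose, both also on the NF-κB-linked list, with a summed level of 1.79 to 1.89 on LPS arrays and 1.18 to 1.64 on sham arrays. Of 2 endothelial miRNAs 0 were called, with a summed level of 4.10 to 4.27 on LPS arrays and 4.13 to 4.23 on sham arrays. Of 5 smooth muscle and stromal miRNAs 2 fell and 3 were not called, with a summed level of 2.84 to 3.002 on LPS arrays and 2.76 to 2.95 on sham arrays. Of 3 erythroid miRNAs, miR-451a, which was above background on all arrays, rose. MiR-144-3p was tested solely through the LPS group (above background on 4 LPS and 2 sham arrays), and miR-486a-5p was not tested. Their summed level was 1.02 to 3.79 on LPS arrays and -0.96 to 1.65 on sham arrays. The summed levels of the endothelial, stromal and erythroid lists overlapped between the groups. Those of the tubule list met at 5.63, and miR-192-5p of that list overlapped between the groups. MiRNAs of liver (miR-122-5p), brain (miR-124-3p) and heart (miR-208a-3p) were not above background on any array. The part of these cell types in the miR-181b-5p and miR-181d-5p results was not tested.

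The arrays were alike in quality. Between 336 and 375 miRNAs were detected per array, 15.8% to 17.5% of non-control spots were well above background, and log2 profiles correlated at 0.989 or more within groups and at 0.959 or more between groups, across miRNAs, which are not independent replicates. The 75th-percentile signal was 494 to 538 intensity units on LPS arrays and 470.2 to 510 on sham arrays.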

How the data were processed

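The authors deposited spot intensities as Agilent Feature Extraction output (12.0.3.1, per the submitters' processing notes). Per the file headers they were background-subtracted with spatial detrending, not scaled between arrays, and annotated on mm9. A table deposited by the authors gives a linear ratio per miRNA and array. The sources used here do not give its scaling, and it served as an alternative and for the values of miR-181a-1-3p.

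Outlier-flagged spots were left out, spots of a probe averaged, arrays divided by their 75th percentile over 551 probes above background on all arrays, and probes of a miRNA summed, floored (-4.68) and log2-transformed. A miRNA was detected when over 50% of the unflagged spots of any probe were well above background. No non-control spot was saturated. Testing covered the 338 miRNAs that all arrays of the LPS group, the sham group or both detected, by a 2-sided limma fit without covariates (version 3.58.1, R 4.3.3); p-values were Benjamini-Hochberg adjusted over all of them with a threshold of 0.05. Of their values 0.851% were at the floor, and none of the members'. A like fit was run over probes. Ratios of 2 members were compared by exact permutation, whose smallest p is 0.0286. The number of arrays limits the precision. The fit was tested on simulated data with independent noise per miRNA. Those data held no slide-row effect and no scaling step, so that test says nothing about either. Mature sequences and their positions came from RefSeq (GRCm38.p6), in which 4 of 4 members matched.

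The members, lists, tests and alternatives were chosen with earlier results of these data known. Named were all members, the opposite strands of their hairpins, per member the 3 miRNAs with the highest Pearson's r over the arrays, and, of the NF-κB-linked list, the 3 with the smallest p. Other miRNAs of that list, and miR-451a, miR-144-3p and miR-486a-5p, were named after their values were seen.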

Additional observations from a re-analysis of the deposited data

Results flagged for a closer look

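In 32 groups of 4 arrays examined (members, opposite strands and ratios of members), 3 had a single array well away from the rest of its group. In 10 of the 32 all arrays were at the floor of the scale and could not differ. Of the 21 groups with fewer than 3 arrays at the floor, 2 had such an array, where chance gives about 1.05, or 1 in 20. Sham replicate 5 stood apart for the log2 ratio of miR-181a-5p over miR-181c-5p, at 2.17 against 2.39 to 2.43 on the other sham arrays. It also stood apart for miR-181b-5p over miR-181d-5p, at 1.25 against 1.603 to 1.67. Both ratios have a chromosome 8 strand below the line, and sham replicate 5 had the highest sham level of miR-181c-5p (-1.98) and of miR-181d-5p (-2.83) and the lowest of miR-181a-5p (0.19) and of miR-181b-5p (-1.58). Without it the miR-181b-5p difference was -0.50 and that of miR-181d-5p -0.24, both still called (limma, adjusted p = 0.00156 and 0.0384). For the undetected miR-181a-1-3p, LPS replicate 10 was at -4.45 and the other LPS arrays at the floor of the scale, -4.68, where any single value above it is singled out.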

How the results depend on the processing

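No paired analysis was possible because the groups share only 1 replicate number, 6; this concerns pairing by replicate number, and slide column was run as a block instead. MiR-181a-5p, miR-181b-5p and miR-181c-5p kept their side of the threshold in all 25 alternatives. MiR-181d-5p lost its call with the percentile over all probes (-0.23), no scaling (-0.21), quantile normalization (-0.22), cyclic loess (-0.19), no filter on dim miRNAs (-0.28, with 1881 tested), slide column as a block (-0.28) and the deposited ratio table (-0.25). Leaving out each array gave -0.32 to -0.23 for miR-181d-5p and -0.50 to -0.38 for miR-181b-5p. The number of miRNAs called, 136 of 338, was 60 with no filter, 80 with slide column as a block and 85 to 152 without each array (85 without sham replicate 6 and 88 without LPS replicate 12). Lower calls were 86 of the 136, 53 of 108 with the percentile over all probes, 49 of 106 without scaling, 66 of 131 with cyclic loess, 149 of 183 with spike-in scaling and 53 of 99 in the deposited ratio table. Ratio differences lost their calls with normexp (0.24 for miR-181a-5p over miR-181b-5p, 0.10 over miR-181d-5p, -0.23 for miR-181b-5p over miR-181c-5p and 0.090 for miR-181c-5p over miR-181d-5p). Leaving out each array gave 0.40 to 0.46 for miR-181a-5p over miR-181b-5p, 0.19 to 0.30 over miR-181d-5p, -0.50 to -0.38 for miR-181b-5p over miR-181c-5p, 0.22 to 0.28 for miR-181c-5p over miR-181d-5p and -0.26 to -0.12 for miR-181b-5p over miR-181d-5p. With 7 arrays few regroupings exist, so these p-values say little about stability. With slide column as a block, the ratio differences were the same (0.42, 0.26, -0.42 and 0.25 for miR-181a-5p over miR-181b-5p, miR-181a-5p over miR-181d-5p, miR-181b-5p over miR-181c-5p and miR-181c-5p over miR-181d-5p), and their exact permutation p of 0.125 (adjusted 0.188) is the smallest that 4 columns allow. The cause of the lost calls was not tested. Spots of miR-181d-5p were well above background in 90 of 119 cases in LPS and 105 of 119 in sham kidneys.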
